A study of Mus musculus with 4 samples.

Results

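The signalling lymphocytic activation molecule (SLAM) receptor family was examined in quiescent splenic follicular B cells, sorted from mice with and without the transcription factor Ets1. The family was taken as the 9 genes Slamf1, Slamf6, Slamf7, Slamf8, Slamf9, Ly9, Cd84, Cd48 and Cd244, picked by gene symbol from the 23305 genes of the expression tables. The levels of messenger RNA were measured by RNA-sequencing and are given as FPKM, a count of sequenced fragments relative to the length of the transcript and to the reads mapped in the library, which allows genes to be set side by side. There were 2 libraries of WT B cells from C57BL/6 mice and 2 of Ets1-/- B cells from mice of a C57BL/6 x 129Sv background, all from females. In both genotypes the sort took cells with B220, high CD23 and low CD21 on the surface, and left out cells carrying CD80 or a switched immunoglobulin (IgA, IgE or any IgG subclass). The animals' age, and whether cells of several spleens were pooled, are not given in the sources used here. The Ets1-/- allele is a germline mutation carried by every cell of the animal, and because the WT libraries came from another background, the effects of genotype and of strain cannot be told apart.

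SLAM receptors are immunoglobulin-superfamily proteins of the blood cell surface, most of which bind a copy of themselves on a neighbouring cell. The exceptions are Cd48, which is held in the membrane by a lipid anchor and has no cytoplasmic tail, and its partner Cd244. The tails of Slamf1, Slamf6, Ly9, Cd84 and Cd244 carry tyrosine switch motifs that recruit the small adapter SAP (Sh2d1a) and through it the kinase Fyn, or phosphatases where SAP is lacking. In B and T cells these receptors tune the contact between the cells during antibody responses, and in mice the gene cluster is a known lupus susceptibility region whose alleles differ between C57BL/6 and 129Sv mice.

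All 9 genes lay on chromosome 1 within 1031376 bases of the mm9 genome. In order along the chromosome, Cd244 occupied chr1:173489324-173515449 on the plus strand, Ly9 chr1:173518755-173537541 on the minus strand and Slamf7 chr1:173562534-173579149 on the minus strand. They were followed, all on the plus strand, by Cd48 at chr1:173612140-173635389, Slamf1 at chr1:173697258-173731315, Cd84 at chr1:173769828-173820849 and Slamf6 at chr1:173847646-173879083. After a gap of 526405 bases came Slamf9 at chr1:174405489-174408706 on the plus strand and Slamf8 at chr1:174511508-174520699 on the minus strand. No other annotated gene of the GENCODE M1 annotation overlapped any of the 9. Slamf6 had 3 annotated transcripts, Ly9 and Cd84 had 5 each and Cd48 had 2. The deposited values are sums over the gene, so isoforms such as those of Slamf6 (also called Ly108), which are known to differ between mouse strains, were not separated.

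The promoters of the 4 members with the smallest p-values in the comparison of genotypes are shown because Ets1 belongs to a family of factors that bind DNA around a GGAA core. Each is 300 bases long, 250 before the RefSeq start site and 50 after it, is written 5′ to 3′ along the gene, and was taken from the RefSeq table of the GRCm38.p6 assembly. Each matched mm9 without a mismatch at 1 place on chromosome 1. Capitals mark the hexamers CGGAAG and AGGAAG, 2 forms of the family's recognition sequence, or their reverse complements CTTCCG and CTTCCT.
Slamf6 (mm9 chr1:173847343-173847642, plus strand): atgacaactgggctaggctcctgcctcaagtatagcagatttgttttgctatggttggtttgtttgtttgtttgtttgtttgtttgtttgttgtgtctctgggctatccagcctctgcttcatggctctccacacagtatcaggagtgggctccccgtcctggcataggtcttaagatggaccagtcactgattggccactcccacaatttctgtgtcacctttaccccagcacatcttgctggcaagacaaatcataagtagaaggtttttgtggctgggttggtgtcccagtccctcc
Cd48 (mm9 chr1:173611873-173612172, plus strand): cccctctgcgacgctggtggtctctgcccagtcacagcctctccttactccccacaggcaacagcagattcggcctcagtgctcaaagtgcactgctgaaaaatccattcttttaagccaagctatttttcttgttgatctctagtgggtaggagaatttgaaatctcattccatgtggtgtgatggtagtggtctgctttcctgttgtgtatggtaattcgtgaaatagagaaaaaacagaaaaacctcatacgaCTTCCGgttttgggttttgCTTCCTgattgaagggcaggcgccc
Slamf1 (mm9 chr1:173697013-173697312, plus strand): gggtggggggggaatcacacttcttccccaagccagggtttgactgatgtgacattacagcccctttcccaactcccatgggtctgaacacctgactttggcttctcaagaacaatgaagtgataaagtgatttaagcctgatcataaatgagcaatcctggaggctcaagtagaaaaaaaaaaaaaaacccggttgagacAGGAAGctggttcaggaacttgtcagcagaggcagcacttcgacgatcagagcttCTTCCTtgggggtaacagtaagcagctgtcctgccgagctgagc
Slamf9 (mm9 chr1:174405241-174405540, plus strand): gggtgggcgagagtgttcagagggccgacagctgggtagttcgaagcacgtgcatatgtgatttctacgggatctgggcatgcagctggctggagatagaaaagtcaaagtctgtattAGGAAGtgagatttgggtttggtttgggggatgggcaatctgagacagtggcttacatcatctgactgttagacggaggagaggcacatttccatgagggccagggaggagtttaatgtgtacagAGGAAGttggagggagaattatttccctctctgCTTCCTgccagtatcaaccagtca

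The Slamf6 window, which ended just before the GENCODE start of the gene, held neither hexamer on either strand. The Cd48 window held both, CGGAAG from position 257 and AGGAAG from position 276, each on the minus strand and counted from the 5′ end of the window. In the Slamf1 window AGGAAG began at position 202 on the plus strand and at position 257 on the minus strand. The Slamf9 window held it at positions 119 and 244 on the plus strand and 277 on the minus strand. RefSeq gave a promoter for 8 members, and of these 5 held either hexamer, the others being Slamf7 and Cd84 with 1 AGGAAG each. The windows of Slamf8 and Cd244 held none, and Ly9 had no entry. Of all 32851 promoters given by RefSeq, 46.5% held either hexamer, 16.9% held CGGAAG and 35.4% held AGGAAG. These are matches of letters in the reference genome, which is that of the C57BL/6 strain, and binding was not measured in these libraries. The study mapped Ets1 binding separately, by ChIP-seq in WT splenic B cells. It lists Slamf6 among the potential target genes with a bound site nearby, which need not lie in the windows searched here.

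In WT follicular B cells Cd48, the lipid-anchored member that binds Cd2 and Cd244, was the most abundant at 157 ± 4.98 FPKM (SD, n = 2). It was followed by Ly9, a self-binding receptor of lymphocytes, at 86.7 ± 2.49 FPKM, Slamf6 at 52.8 ± 5.05 FPKM and Cd84 at 43.2 ± 2.30 FPKM. Slamf1, after which the family is named, had 26.3 ± 0.148 FPKM and Slamf7 had 12.4 ± 1.06 FPKM. Slamf9 stood lower at 3.96 ± 0.816 FPKM, Cd244 at 1.11 ± 0.330 FPKM was near the limit of 1 FPKM used for testing, and Slamf8 at 0.341 ± 0.132 FPKM was below it. None of the neighbours in this order overlapped in their replicate values. In Ets1-/- B cells Slamf6 came first and Cd48 second, and the other 7 members kept their order. There the neighbours Cd84 and Slamf1 overlapped between replicates.

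**Figure D1:**
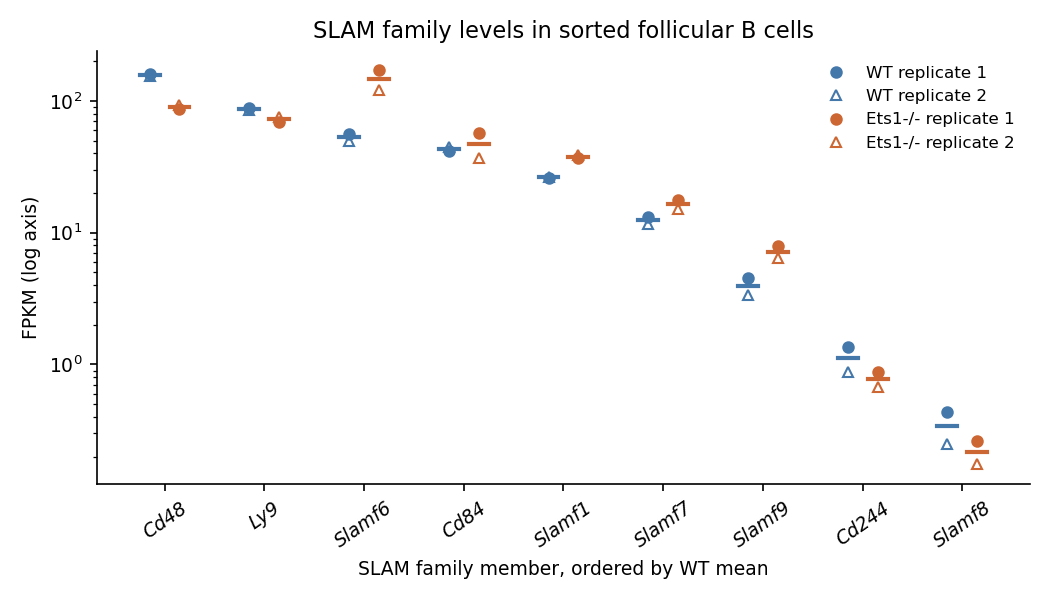
FPKM on a log axis of each SLAM family member in the 2 WT (blue) and 2 Ets1-/- (orange) libraries, ordered by the WT mean, with circles for replicate 1, open triangles for replicate 2 and bars for the mean of the 2 replicates. Slamf6 stands at 170.0 and 121 FPKM in the Ets1-/- libraries against 56.4 and 49.2 FPKM in WT, and Cd48 at 87.3 and 92.3 FPKM against 161 and 154 FPKM.

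Slamf6 showed the largest difference between genotypes in the family and Cd48 the largest in the other direction, but neither passed the test used here. A gene was called changed when limma, fitted across all tested genes on log2(FPKM + 1), gave a fold change of at least 2 with a Benjamini-Hochberg adjusted p of 0.05 or less. Of the 9 members 8 reached a mean of 1 FPKM in either genotype and were tested, and 0 of the 8 were called, where 1.70% of all 10949 tested genes were. Cd244 was among the 8 only through its WT mean, and Slamf8 was not tested. At an unadjusted p under 0.05 there were 4 of the 8 members (Slamf6, Slamf9 and Slamf1 higher and Cd48 lower in Ets1-/- B cells), against 13.3% of all tested genes. The replicates of the genotypes did not overlap for 7 of the 9 members, 4 higher and 3 lower in Ets1-/- B cells, against 41.6% of tested genes. The median log2 fold change was 0.23 over the 8 members and -0.02 over all tested genes, and the median of its absolute value was 0.44 and 0.16. In RNA from a sorted population, a change in the number of cells of one type and a change in the RNA per cell cannot be told apart.

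**Figure D2:**
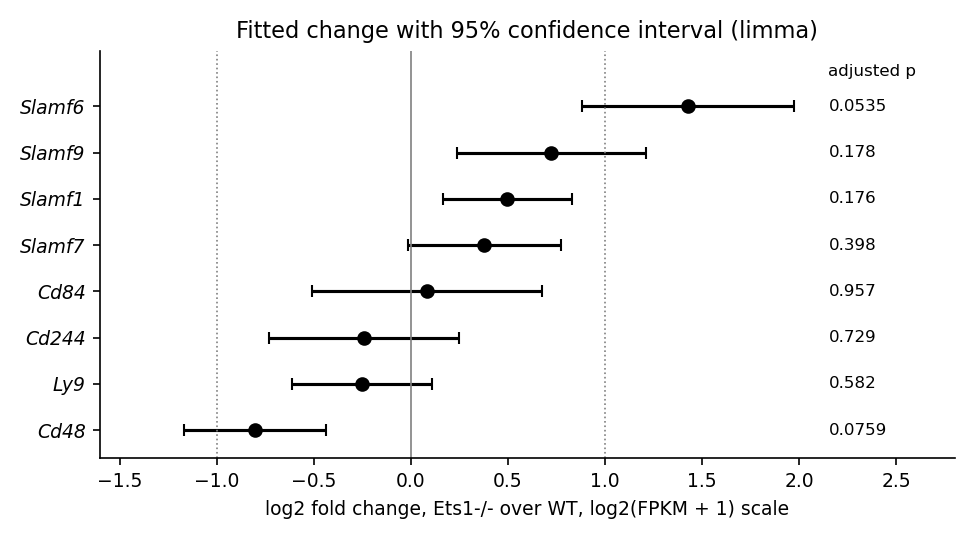
Log2 fold change of Ets1-/- over WT with its 95% confidence interval for the 8 tested members, from limma on log2(FPKM + 1), with the Benjamini-Hochberg adjusted p at the right and dotted lines at a 2-fold change. Slamf6 at 1.43 has an interval above 0 and Cd48 at -0.80 one below 0, and all adjusted p-values are over 0.05.

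Slamf6 is a self-binding receptor of T and B cells whose tail can recruit SAP. It had 56.4 and 49.2 FPKM in the WT libraries and 170.0 and 121 FPKM in the Ets1-/- libraries. Both Ets1-/- libraries lay well above both WT libraries, and the Ets1-/- replicates were further apart than the WT replicates. The ratio of the means was 2.76, and the log2 fold change was 1.43 with a standard error of 0.21 and a 95% confidence interval of 0.88 to 1.97 (limma, unadjusted p = 0.00104, Benjamini-Hochberg adjusted p = 0.0535). Of all tested genes 2.60% had an absolute log2 fold change at least as large. The gene was called when only genes with a mean of 1 FPKM in both genotypes were tested (limma, adjusted p = 0.0498, with 1.29% of tested genes called) and when the variance was estimated robustly (limma, adjusted p = 0.0142, with 2.79% called). Over the alternatives that kept every library, its adjusted p in limma ranged from 0.0142 (robust variance estimation) to 0.0964 (no filter). This range leaves out a crossed pairing of the replicates, which was added after seeing the data. The study applied another test, Cuffdiff on aligned reads, with the same 2-fold and 0.05 limits, and listed Slamf6 as higher in Ets1-/- B cells. Its quantitative RT-PCR, described above, did not appear to show that difference.

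Cd48 differed the other way. Its values were 161 and 154 FPKM in WT B cells and 87.3 and 92.3 FPKM in Ets1-/- B cells. The groups did not overlap, and within each genotype the replicates were close. The WT mean was 1.75 times the Ets1-/- mean, a log2 fold change of -0.80 with a standard error of 0.14 and a 95% confidence interval of -1.17 to -0.44 (limma, unadjusted p = 0.00229, Benjamini-Hochberg adjusted p = 0.0759). This was under the 2-fold limit whatever the p-value. Cd244, the partner of Cd48 and best known from natural killer cells, had 1.35 and 0.881 FPKM in WT B cells and 0.879 and 0.678 FPKM in Ets1-/- B cells. The 2 genotypes all but met, since the lower WT library and the higher Ets1-/- library differed only in the third decimal. Its log2 fold change was -0.24 with a standard error of 0.19 (limma, adjusted p = 0.729). Cd2, the second partner of Cd48 and encoded outside the cluster, had 190 and 219 FPKM in WT and 194 and 244 FPKM in Ets1-/- B cells, which overlapped (log2 fold change 0.09, limma, adjusted p = 0.927).

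Slamf1 is a self-binding receptor that also acts as a sensor of bacteria in phagocytes. It had 26.2 and 26.4 FPKM in WT and 36.6 and 38.5 FPKM in Ets1-/- B cells. Its replicates were the tightest of the family in WT, and both Ets1-/- libraries were above them. The ratio of means was 1.43 and the log2 fold change 0.50 with a standard error of 0.13 and a 95% confidence interval of 0.16 to 0.83 (limma, unadjusted p = 0.0119, adjusted p = 0.176). Slamf9, a short-tailed member known from myeloid cells, had 4.54 and 3.39 FPKM in WT and 7.90 and 6.43 FPKM in Ets1-/- B cells. The genotypes did not overlap, at a level close to the low end of what was tested. Its ratio of means was 1.81 and its log2 fold change 0.72 with a standard error of 0.19 and a 95% confidence interval of 0.24 to 1.21 (limma, unadjusted p = 0.0122, adjusted p = 0.178).

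Slamf7, a self-binding receptor known from plasma cells and natural killer cells, had 13.2 and 11.7 FPKM in WT and 17.8 and 15.2 FPKM in Ets1-/- B cells. These did not overlap, and the interval of the log2 fold change of 0.38 ran from -0.02 to 0.77 (limma, adjusted p = 0.398). Ly9 had 88.5 and 85.0 FPKM in WT and 69.6 and 75.9 FPKM in Ets1-/- B cells. Both Ets1-/- libraries were lower than both WT libraries, with a log2 fold change of -0.25 whose interval was -0.61 to 0.11 (limma, adjusted p = 0.582). Cd84, a self-binding receptor of B cells, T cells and platelets, had 41.6 and 44.8 FPKM in WT and 56.6 and 36.9 FPKM in Ets1-/- B cells. Its 2 Ets1-/- libraries lay on either side of the WT libraries, and the log2 fold change of 0.08 had an interval of -0.51 to 0.67 (limma, adjusted p = 0.957). Without Ets1-/- replicate 1 its log2 fold change was -0.22. Slamf8, a short-tailed member of macrophages and related cells, had 0.435 and 0.248 FPKM in WT and 0.261 and 0.175 FPKM in Ets1-/- B cells, which overlapped.

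The shares of the members in the family total differed between genotypes more than the total itself. The summed FPKM of the 9 members was 393 and 376 in the WT libraries and 447 and 387 in the Ets1-/- libraries, the lower Ets1-/- value lying between the WT values. Without Slamf6 the sum was 337 and 326 in WT and 277 and 266 in Ets1-/- B cells. Slamf6 held 14.3% and 13.1% of the total in the WT libraries and 38.0% and 31.2% in the Ets1-/- libraries, while Cd48 held 40.9% and 41.0% in WT and 19.5% and 23.9% in Ets1-/- B cells. The ratio of Slamf6 to Cd48 within a library, which does not depend on the scaling of that library, was 0.350 and 0.320 in WT and 1.95 and 1.31 in Ets1-/- B cells. The ratio of Slamf6 to Cd84, its neighbour in the cluster, was 1.35 and 1.10 in WT and 3.003 and 3.27 in Ets1-/- B cells. The ratio of Cd48 to Ly9 was 1.82 and 1.81 in WT and 1.25 and 1.22 in Ets1-/- B cells. The ratio of Slamf6 to Cd48 sets the member with the largest rise over the one with the largest fall. These 3 ratios were given as values, without a test.

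**Figure D3:**
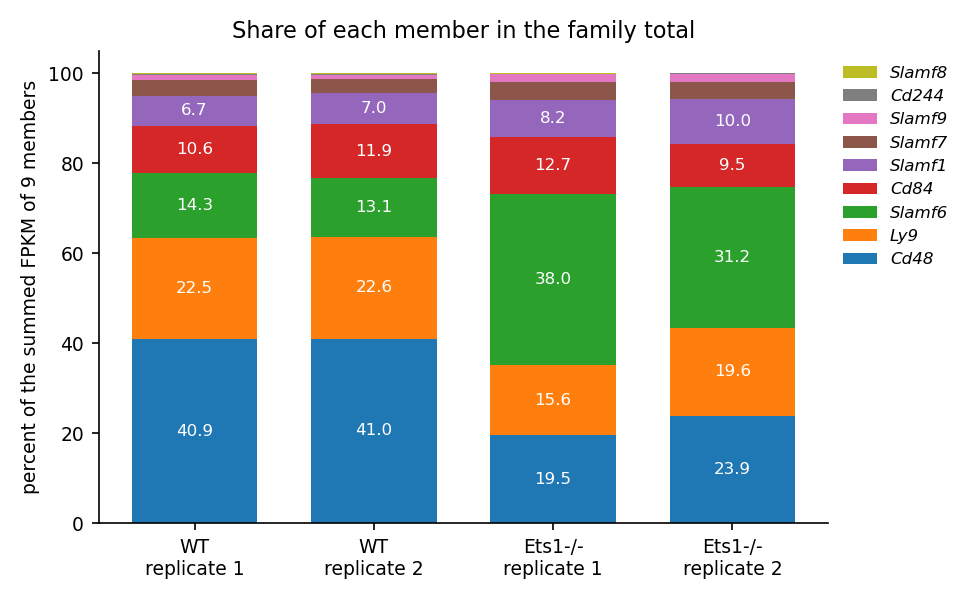
Percent of the summed FPKM of the 9 SLAM family members held by each member, 1 bar per library, with shares over 6% printed. Slamf6 takes 38.0% and 31.2% in the Ets1-/- libraries against 14.3% and 13.1% in WT, and Cd48 takes 19.5% and 23.9% against 40.9% and 41.0%.

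Genes around the cluster were examined beside its members. Within 500 kb on either side of the cluster, and between its members, 29 other genes were tested. Of these 1 was called and 3 had an unadjusted p under 0.05, beside the 1.70% and 13.3% of all tested genes. The called gene was Itln1, an intelectin that binds microbial sugars and lies just before Cd244 at chr1:173448253-173465425. It was listed at 0 in both WT libraries and at 2.74 and 1.72 FPKM in the Ets1-/- libraries (limma, log2 fold change 1.67, adjusted p = 0.0370). Intelectin genes have near-identical copies, whose number is known to differ between mouse strains, so how reads were shared among them is uncertain, and the call was lost without WT replicate 1 and without Ets1-/- replicate 1. The other 2 were Klhdc9, with 1.63 and 2.001 FPKM in WT and 0.896 and 1.15 FPKM in Ets1-/- B cells, and the phosphatase Dusp23, with 2.28 and 1.13 FPKM in WT and 0.348 and 0.530 FPKM in Ets1-/- B cells. Their log2 fold changes were -0.48 and -0.88 (limma, adjusted p = 0.325 and 0.216). Itln1 and Dusp23 were tested only through the genotype in which they were higher, and with 1 FPKM required in both genotypes 0 neighbouring genes were called. The 29 genes had a median log2 fold change of -0.02, and the genotypes did not overlap for 10 of them (34.5%), beside the 41.6% of all tested genes. Slamf6 and Cd48, with log2 fold changes of 1.43 and -0.80, are separated in the cluster by Slamf1 and Cd84, at 0.50 and 0.08. The part of mouse strain in these values was not tested.

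**Figure D4:**
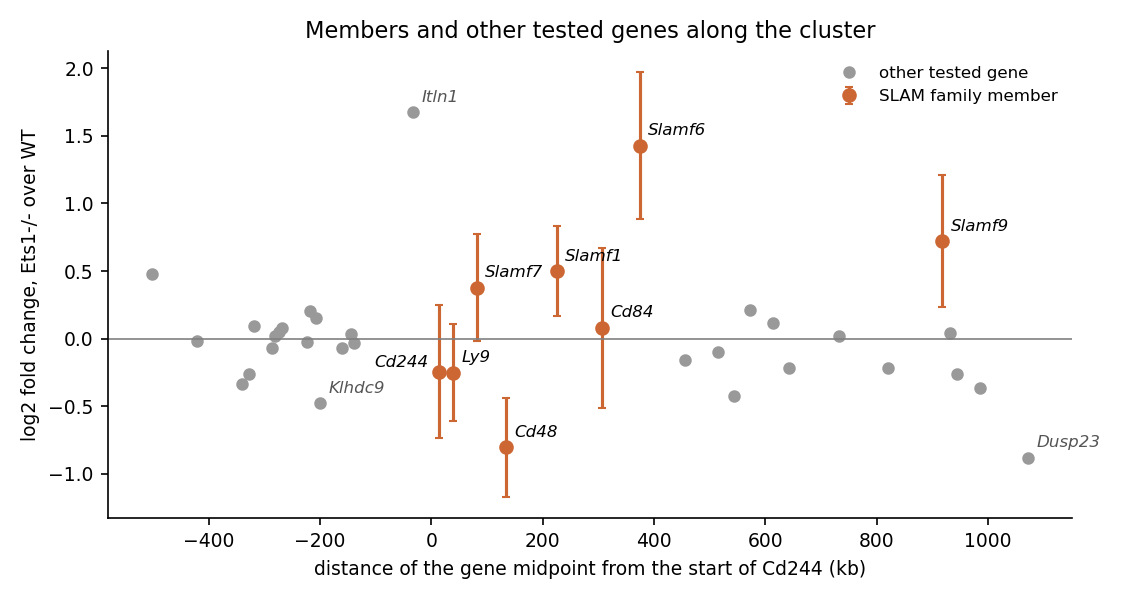
Log2 fold change of Ets1-/- over WT against the distance of the gene's midpoint from the start of Cd244 in kb, for the 8 tested SLAM members (orange, with the 95% confidence interval) and the 29 other tested genes (grey, those with an unadjusted p under 0.05 named). Members of both signs stand next to each other, and Itln1 at 1.67 is the highest point.

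Of 20 listed genes that act with SLAM receptors, 18 were tested and 0 were called, where 1.70% of all tested genes were, and 6 had an unadjusted p under 0.05 (3 higher and 3 lower in Ets1-/- B cells), beside the 13.3% of all tested genes. Their median log2 fold change was 0.04. The adapter SAP (Sh2d1a) had 2.60 and 3.70 FPKM in WT and 6.41 and 4.97 FPKM in Ets1-/- B cells. Both Ets1-/- libraries were higher, with a log2 fold change of 0.69 and a standard error of 0.21 (limma, adjusted p = 0.226). Of the related EAT-2 adapters, Sh2d1b1 had 0.344 and 0.370 FPKM in WT and 0.298 and 0.0436 FPKM in Ets1-/- B cells, and Sh2d1b2 was listed at 0 in all 4 libraries. Fyn, the kinase that SAP brings to the receptors, had 25.4 and 24.6 FPKM in WT and 11.7 and 14.7 FPKM in Ets1-/- B cells. Both Ets1-/- libraries were lower, and the log2 fold change was -0.88 with a standard error of 0.16 (limma, adjusted p = 0.0796). The other 5 kinases and regulators (Lyn, Lck, Csk, Prkcq and Vav1) all had adjusted p-values over 0.05.

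Among inhibitory effectors, the adapter Dok2 had 3.44 and 2.78 FPKM in WT and 5.21 and 5.70 FPKM in Ets1-/- B cells (log2 fold change 0.65, limma, adjusted p = 0.154). Its relative Dok1 had 27.7 and 30.8 FPKM in WT and 20.0 and 23.9 FPKM in Ets1-/- B cells (log2 fold change -0.40, limma, adjusted p = 0.371). The genotypes did not overlap for either gene, and they lay in opposite directions. The phosphatases Ptpn6, Ptpn11 and Inpp5d had log2 fold changes of 0.08, 0.01 and -0.15. Slamf1 is known to assemble with Becn1, Uvrag and the lipid kinase Pik3c3 on phagosomes, and Pik3r4 is a regulatory subunit of that kinase. Pik3r4 had 19.5 and 21.1 FPKM in WT and 9.23 and 10.3 FPKM in Ets1-/- B cells, a log2 fold change of -0.98 that passed the p threshold but not the 2-fold limit (limma, adjusted p = 0.0496). With a pseudocount of 0.1 or 0.5 in place of 1 it was called. Uvrag had 50.5 and 50.9 FPKM in WT and 80.8 and 85.6 FPKM in Ets1-/- B cells (log2 fold change 0.70, limma, adjusted p = 0.0893). Becn1 and Pik3c3 had log2 fold changes of 0.19 and 0.00.

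**Figure D5:**
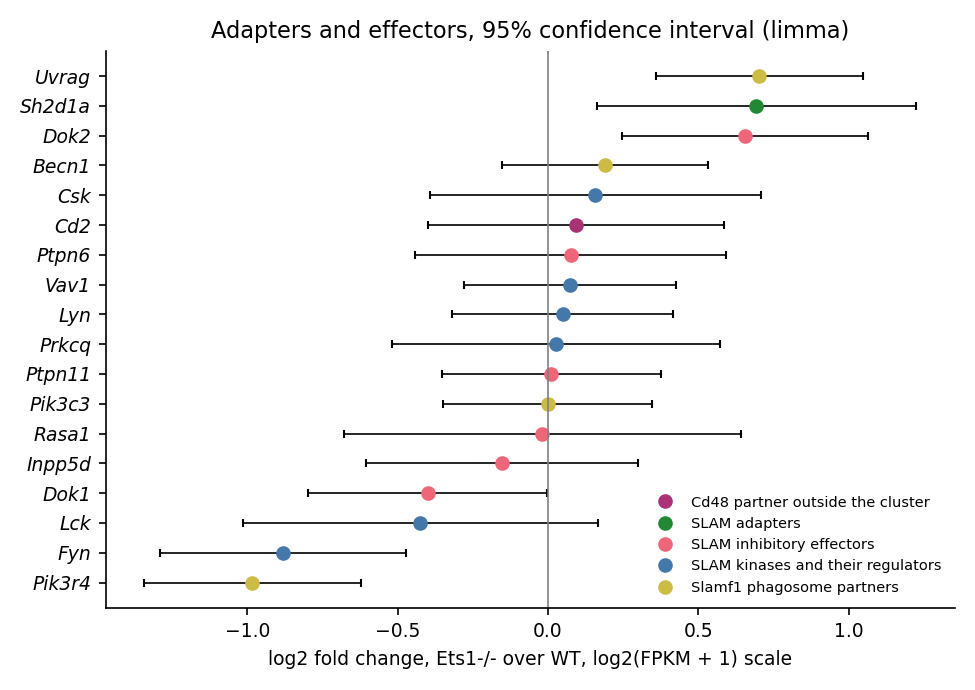
Log2 fold change of Ets1-/- over WT with its 95% confidence interval (limma on log2(FPKM + 1)) for the 18 tested adapters, kinases, inhibitory effectors, phagosome partners and Cd2, coloured by group. Uvrag, Sh2d1a and Dok2 lie highest, at 0.70, 0.69 and 0.65, and Pik3r4 and Fyn lowest, at -0.98 and -0.88.

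The libraries were checked for the labelled cell type and for others. The 8 B cell markers summed to between 5298 and 6625 FPKM in the 4 libraries. Of these, Cd79a and Cr2 were lower in both Ets1-/- libraries, and neither was called. Cr2 had 102 and 116 FPKM in WT and 65.1 and 30.0 FPKM in Ets1-/- B cells. The marginal zone markers summed to 97.5 and 118 FPKM in WT and 89.4 and 69.0 FPKM in Ets1-/- B cells. For the dendritic cell markers the sums were 5.49 and 4.65 FPKM in WT and 7.29 and 6.82 FPKM in Ets1-/- B cells. All 8 neutrophil markers in the tables (S100a8, S100a9, Ngp, Camp, Ltf, Lcn2, Elane and Mpo) were higher in both Ets1-/- libraries, summing to 2555 and 699 FPKM against 111 and 92.3 FPKM in WT, and 3 were called. The monocyte and macrophage markers summed to 64.9 and 31.7 FPKM in WT and 150.4 and 95.7 FPKM in Ets1-/- B cells, with 1 of 7 tested called (Emr1). Emr1 and Lyz2 made up most of that difference, while Csf1r and Cd68 had lower means in Ets1-/- B cells and C1qa, C1qb, C1qc and Cd14 overlapped between genotypes. The erythroid markers summed to 6.21 and 3.95 FPKM in WT and 63.5 and 27.5 FPKM in Ets1-/- B cells. Of the natural killer markers 5 of 6 were lower in both Ets1-/- libraries, their sum being 44.0 and 30.3 FPKM in WT and 20.2 and 29.2 FPKM in Ets1-/- B cells, while the T cell markers summed to 96.2 and 78.5 FPKM in WT and 84.5 and 103 FPKM in Ets1-/- B cells. The plasma cell markers summed to 168 and 189 FPKM in WT and 138 and 152 FPKM in Ets1-/- B cells, but the list was mixed. Sdc1, the plasma cell surface marker CD138, had 2.41 times and Prdm1, which encodes Blimp1, 2.52 times the WT mean in Ets1-/- B cells without overlap, and neither was called. Irf4, Xbp1 and Tnfrsf17 were lower in both Ets1-/- libraries than in both WT libraries, and Igj overlapped. No marker of these lists was at 0 in any library. Ets1 itself had 231 and 275 FPKM in WT and 229 and 229.8 FPKM in Ets1-/- B cells, a whole-gene value that checks nothing, since the targeted allele lacks only some of its exons. Relative to WT replicate 1, the depth judged from the steps between low FPKM values was 1.75, 1.67 and 0.876 in WT replicate 2 and Ets1-/- replicates 1 and 2.

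Slamf6, Slamf7, Slamf8, Slamf9, Cd84 and Cd244 were higher in replicate 1 than in replicate 2 of the Ets1-/- B cells, and Cd48, Slamf1 and Ly9 were lower. In WT B cells all members but Slamf1 and Cd84 were higher in replicate 1 than in replicate 2. Between the Ets1-/- libraries, Slamf6 was 1.41 times and Cd84 1.53 times as high in replicate 1. Without that replicate the log2 fold change of Slamf6 was 1.18, that of Slamf9 0.59, that of Slamf1 0.53 and that of Cd48 -0.76, each with the sign it had over all 4 libraries, whereas that of Cd84 went from 0.08 to -0.22. The part of other cell types in the differences of the SLAM members was not tested.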

How the data were processed

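RNA-sequencing libraries of sorted splenic follicular B cells (2 WT and 2 Ets1-/-) were analysed. The authors aligned reads to mm9 and estimated expression, and the deposited tables give 1 FPKM value per gene and library. The submitters' processing notes name TopHat2 2.0.13 and Cuffdiff. The annotation and any scaling between libraries are not given in the sources used here, and scaling enters every fold change between libraries. Read counts are not in these tables, so tests on counts were not run. The study's methods call the replicates biological, and the labels do not tie them to animals.

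Repeated symbols removed 4 of the 23309 entries, and 20978 of the remaining 23305 genes (90.0%) matched GENCODE M1 of mm9, the source of gene positions. Linear models on log2(FPKM + 1), a scale that understates the changes of low genes, used limma 3.58.1 (R 4.3.3) with lmFit and a trended eBayes step, leaving 2 residual degrees of freedom among the 4 libraries. The 10949 genes averaging 1 FPKM or more in at least 1 genotype entered. Benjamini-Hochberg adjustment ran across all of them, and calls needed an adjusted p of 0.05 or less together with a 2-fold change (log2 fold change of 1) in either direction. An exact permutation test of 2 against 2 samples cannot pass that threshold and was not used. Sums, shares and promoter matches were computed in Python 3.11.15 with pandas 2.3.3.

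Members, gene lists and the alternatives were chosen with earlier results of these data known. Named were all 9 members, adapters, effectors and neighbouring genes that were called or had an unadjusted p under 0.05, the SAP family adapters, and the 5 genes whose profile was nearest to that of Slamf6. Other genes of the effector list were named for their roles after their values were seen. The alternatives were other pseudocounts, filters and scalings, another variance estimate, a replicate block and the omission of each library in turn.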

Additional observations from a re-analysis of the deposited data

How the results depend on the processing

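The counts of called genes rested on settings, while the signs of the members' changes mostly did not. Of the 8 members 0 were called, but 1, Slamf6, was called when 1 FPKM was required in both genotypes, with robust variance estimation and with the replicate block (log2 fold change 1.43 in each, and 1 member with no test at 2-fold without overlap). The adjusted p of Slamf6 in limma ranged from 0.0142 to 0.0964 over the alternatives that kept every library, the crossed pairing below not included. Its log2 fold change was 1.18 to 1.67 when 1 library was left out. The labels share replicate numbers between genotypes, but same-numbered libraries deviated from their group means with a correlation of -0.21 across genes, so the numbers were not taken as pairs. Under the replicate block 266 of all genes were called instead of 186. The crossed pairing, added after seeing the data, called 409 genes and 1 member (Slamf6, log2 fold change 1.43, limma, adjusted p = 0.000842). All genes called numbered 75 with no filter, 305 with robust estimation and 403 with no test. The change of Cd84 ranged from -0.22 (without Ets1-/- replicate 1) to 0.38, and only this member turned sign under any alternative. Of adapters and effectors 1 was called with a pseudocount of 0.1 and 1 with 0.5 (Pik3r4). Of neighbouring genes 0 were called with no filter, with 1 FPKM in both genotypes and with upper-quartile scaling, and 0 to 1 when 1 library was left out. The cause was not tested. Cd244 fell below the filter, and so had no value, with 1 FPKM in both genotypes and without WT replicate 1. With 1 library left out, the lone sample of its genotype is assumed to vary like the others. Median differences between replicates were 0.126 in WT and 0.259 in Ets1-/- libraries on the log2 scale. Depth in reads is not known from FPKM, so no counting interval is given for low members such as Slamf8.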

Other observations

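The genes whose levels over the 4 libraries ran most like those of Slamf6 were sought among all tested genes, by the Euclidean distance between log2(FPKM + 1) profiles centred on their means. The nearest was Xlr, an X-linked lymphocyte-regulated gene, at a distance of 0.049, with 0.850 and 0.550 FPKM in WT and 4.49 and 2.85 FPKM in Ets1-/- B cells. Xlr belongs to a family of closely similar copies, so its values are uncertain. It was followed by Ccdc122 at 0.127, Prodh, an enzyme of proline breakdown, at 0.154, and Il18, an inflammatory cytokine, at 0.159. Il18 had 4.33 and 4.45 FPKM in WT and 16.1 and 11.1 FPKM in Ets1-/- B cells. The fifth was Tagap1, at 0.163, with 8.13 and 6.85 FPKM in WT and 25.3 and 20.6 FPKM in Ets1-/- B cells. None of the 5 lies on chromosome 1. Because nearness to Slamf6 chose these genes, their differences between genotypes are a description. The nearest SLAM member was Slamf9, in place 208, and the next Slamf1, in place 561.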
